A study of Rattus norvegicus with 16 samples.

Results

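High fat diet with vehicle injections was set against chow in frontal cortex taken from male Sprague-Dawley rats. The HF_PBS group of 4 libraries came from rats that ate a high fat diet for 7 weeks from an age of 11 weeks and were injected with phosphate-buffered saline (PBS) into the abdomen for 10 days. The chow group of 4 libraries came from rats given chow over the same 7 weeks, with no injection stated. Another 8 libraries of the series form 2 further groups on the same high fat diet. HF has no injection stated, and HF_5AzaD had injections for 10 days of the DNA methyltransferase inhibitor 5-AzaD in PBS. Both groups entered the fit to share 1 estimate of the spread. HF is set beside HF_PBS for some genes, and HF_5AzaD for fewer. Of the 28168 loci in the deposited table, 14824 averaged at least 1 FPKM across all 16 libraries and had the status OK in every one, and all 14824 were compared. Levels are FPKM, read fragments scaled to transcript length and to the library's mapped total, so they can be set beside each other between genes. Differences are HF_PBS minus chow on the scale of log2(FPKM + 0.5), from limma, and a locus was called at a Benjamini-Hochberg adjusted p under 0.05 over all loci tested. Every adjusted p given for a gene is of this kind, values with ± are mean ± SD of 4 libraries unless given as SE, and differences of genes near the pseudocount are understated.

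HF_PBS and chow differ in the diet and in the injections, which cannot be told apart here, nor from any batch that follows the groups. The letters HFD stand for the diet alone in the series' design text but for the PBS animals in the sample titles. Groups follow the treatment stated for each sample. If the letters meant the diet alone in the titles too, HF_PBS and HF would be exchanged in everything below. Whether each library stands for its own animal is not stated, so p-values measure only how far these samples spread, and that spread may be technical.

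The frontal cortex holds excitatory projection neurons, which release glutamate, among inhibitory interneurons, astrocytes, microglia and myelin-forming oligodendrocytes. Sodium, potassium and calcium channels set how readily its neurons fire, and a dense machinery of vesicle release, receptors and scaffolds passes the signal on. Long exposure to fat-rich food changes insulin, leptin and glucocorticoid signals that reach the brain, and repeated handling and injection are themselves stressors for a rat. Cytosines followed by guanine (CpG pairs) are where DNA methyltransferases act, and dense runs of CpG lie at the start sites of many genes.

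Start sites of 6 genes described below are printed to show the sequence context of genes that were higher and genes that were lower in HF_PBS. These are 120 bases before the annotated start on the gene's strand, 5′ to 3′, from RefSeq on the rat build GRCr8, which is not the build named for the deposited values. Capitals mark CpG pairs. Rpl10a (chr20:6390413-6390532, plus strand, 14 CpG), Psmb6 (chr10:55737768-55737887, plus strand, 10 CpG) and Gapdh (chr4:159652468-159652587, minus strand, 9 CpG) were higher in HF_PBS.
Rpl10a: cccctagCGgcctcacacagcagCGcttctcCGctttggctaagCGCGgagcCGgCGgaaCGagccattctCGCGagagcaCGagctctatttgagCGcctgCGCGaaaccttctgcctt
Psmb6: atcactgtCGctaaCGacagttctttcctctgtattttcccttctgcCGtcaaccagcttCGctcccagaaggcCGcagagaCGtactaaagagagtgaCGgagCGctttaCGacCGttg
Gapdh: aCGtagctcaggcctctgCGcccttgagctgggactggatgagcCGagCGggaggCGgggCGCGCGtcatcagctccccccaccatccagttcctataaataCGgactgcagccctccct
Kcnab2 (chr5:168270761-168270880, minus strand, 14 CpG), Kcnj9 (chr13:87320294-87320413, minus strand, 3 CpG) and Camk2a (chr18:56649060-56649179, plus strand, 3 CpG) were lower in HF_PBS.
Kcnab2: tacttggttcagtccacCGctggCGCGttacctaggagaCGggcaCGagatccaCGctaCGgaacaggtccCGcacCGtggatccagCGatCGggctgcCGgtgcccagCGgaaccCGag
Kcnj9: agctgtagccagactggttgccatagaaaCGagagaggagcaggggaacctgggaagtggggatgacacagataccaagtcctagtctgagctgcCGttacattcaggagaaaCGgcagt
Camk2a: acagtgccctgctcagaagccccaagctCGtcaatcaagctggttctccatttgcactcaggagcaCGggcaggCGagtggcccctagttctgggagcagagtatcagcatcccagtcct

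The windows of the lower genes ranged from 3 to 14 CpG pairs and those of the higher genes from 9 to 14. Over the 300 bases from 250 before to 50 after the start, 1053 of the 1287 genes called higher had a promoter in the RefSeq table, with a median of 21 CpG pairs. Of the 1494 genes called lower, 1187 had one, with a median of 24, and the median over the 8233 promoters of all 10216 gene symbols tested was 21. The run TATAAA, searched on both strands, stood in 6.93% of promoters of genes called higher, in 4.13% of those called lower and in 6.29% of all tested. These are descriptions of the sequence with no test.

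Before the group comparison, the libraries themselves were compared. The absolute depth is unknown, since read counts per library are not used here. From the steps between the lowest FPKM values, the 4 HF_PBS libraries had 32.5% to 42.6% of the depth of the deepest chow library, and the other chow libraries 38.7% to 63.3%. Pearson correlations of log2 values across loci were 0.931 to 0.957 within HF_PBS, 0.965 to 0.984 within chow and 0.877 to 0.954 between the groups. HF_PBS libraries 3 and 4 stood farther from chow than libraries 1 and 2: the median absolute distance from the chow mean was 0.267, 0.251, 0.398 and 0.428 in log2 units for HF_PBS libraries 1 to 4, against 0.06 to 0.12 for chow libraries.

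The tissue label was checked against markers of cortex and of its neighbours. Cortical excitatory neuron markers were present in every library. The sum over 9 excitatory markers was 1073 to 3758 FPKM in HF_PBS and 2878 to 3387 FPKM in chow, with its lowest value in HF_PBS library 3. Slc17a7, the vesicular glutamate transporter of cortical projection neurons, had 601, 426, 132 and 413 FPKM in HF_PBS libraries 1 to 4, against 604, 647, 615 and 719 FPKM in chow libraries 1 to 4, so all HF_PBS libraries were below chow, library 1 just below it and library 3 by far the lowest. Over the 9 excitatory markers, 3 differences were positive and 6 negative, and 0 were called. Genes of neighbouring regions were high in some HF_PBS libraries. Penk, a peptide precursor of striatal neurons, had 70.6, 275, 369 and 364 FPKM in HF_PBS libraries 1 to 4, against 63.0, 67.7, 106 and 62.9 FPKM in chow libraries 1 to 4, and 3 of 4 HF_PBS libraries lay far above every chow library. Avp, the vasopressin precursor of hypothalamic neurons, had 0.533, 0.587, 42.4 and 61.2 FPKM in HF_PBS libraries 1 to 4, against 0.370, 0.547, 0.405 and 0.0716 FPKM in chow libraries 1 to 4, high in HF_PBS libraries 3 and 4 and near the floor elsewhere. Mbp, the myelin basic protein of oligodendrocytes, had 3105, 2094, 8149 and 9064 FPKM in HF_PBS libraries 1 to 4, against 2396, 3014, 3514 and 2039 FPKM in chow libraries 1 to 4, again with HF_PBS libraries 3 and 4 apart. These 4 markers were picked after their values were seen and none of them passed the gene test.

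**Figure D1:**
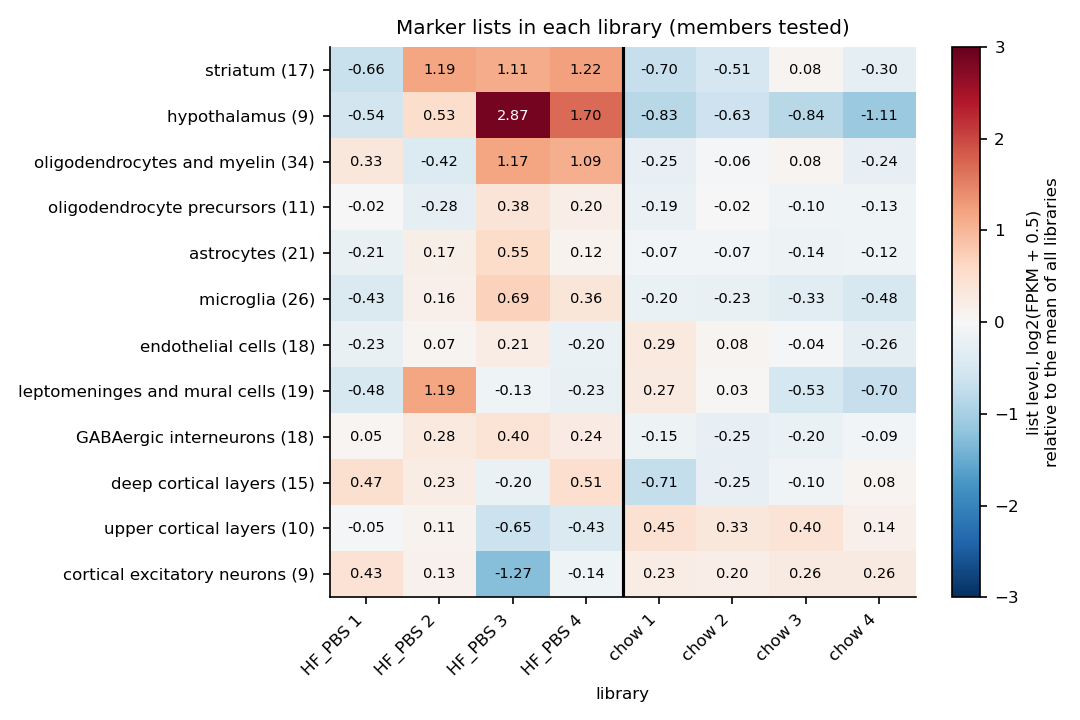
Mean over the members of 12 marker lists of log2(FPKM + 0.5) less each member's mean over the 16 libraries, by library, HF_PBS libraries on the left and chow libraries on the right. The hypothalamus list reaches 2.87 in HF_PBS library 3, the myelin list 1.17 and 1.09 in HF_PBS libraries 3 and 4, and the striatum list exceeds 1 in HF_PBS libraries 2, 3 and 4.

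Scores over whole marker lists show the same libraries apart from chow, as the map of marker lists by library displays. The striatum list (17 markers) scored -0.66, 1.19, 1.11 and 1.22 in HF_PBS libraries 1 to 4, against -0.70, -0.51, 0.08 and -0.30 in chow libraries 1 to 4, in mean log2 units around each marker's mean. HF libraries 5 to 8, which the map leaves out, scored -0.51, -0.46, -0.44 and 2.24 on the striatum list. HF library 8 thus lay above every HF_PBS library, so a high striatum score was not particular to HF_PBS. The myelin list (34 markers) scored 0.33, -0.42, 1.17 and 1.09 in HF_PBS, against -0.25, -0.06, 0.08 and -0.24 in chow. The hypothalamus list (9 markers) scored -0.54, 0.53, 2.87 and 1.70 in HF_PBS, against -0.83, -0.63, -0.84 and -1.11 in chow. The excitatory list (9 markers) scored 0.43, 0.13, -1.27 and -0.14 in HF_PBS, against 0.23, 0.20, 0.26 and 0.26 in chow, with HF_PBS library 1 above every chow library. In HF libraries 5 to 8 the myelin list scored -0.18, -0.34, 0.10 and -0.24, and the hypothalamus list -0.70, -0.86, -0.43 and 0.56. HF_PBS library 1 scored close to chow on the striatum and hypothalamus lists and above all 4 chow libraries on the myelin list. What these markers contribute to the gene differences below was not tested. In bulk tissue, fewer cells of a type and less RNA per cell cannot be told apart.

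HF_PBS cortex differed from chow cortex at 4173 of the 14824 loci (28.2%). Of these, 1842 were higher (12.4%) and 2331 lower (15.7%), and the median difference over all loci was 0.01. At an unadjusted p under 0.05 there were 6285 loci. The 2 groups of 4 did not overlap at 4941 loci (33.3%), of which 3695 were also called. By size, 848 loci called higher and 1404 called lower differed by at least 1.5-fold, 244 and 619 by at least 2-fold, and 39 and 58 by at least 4-fold.

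**Figure D2:**
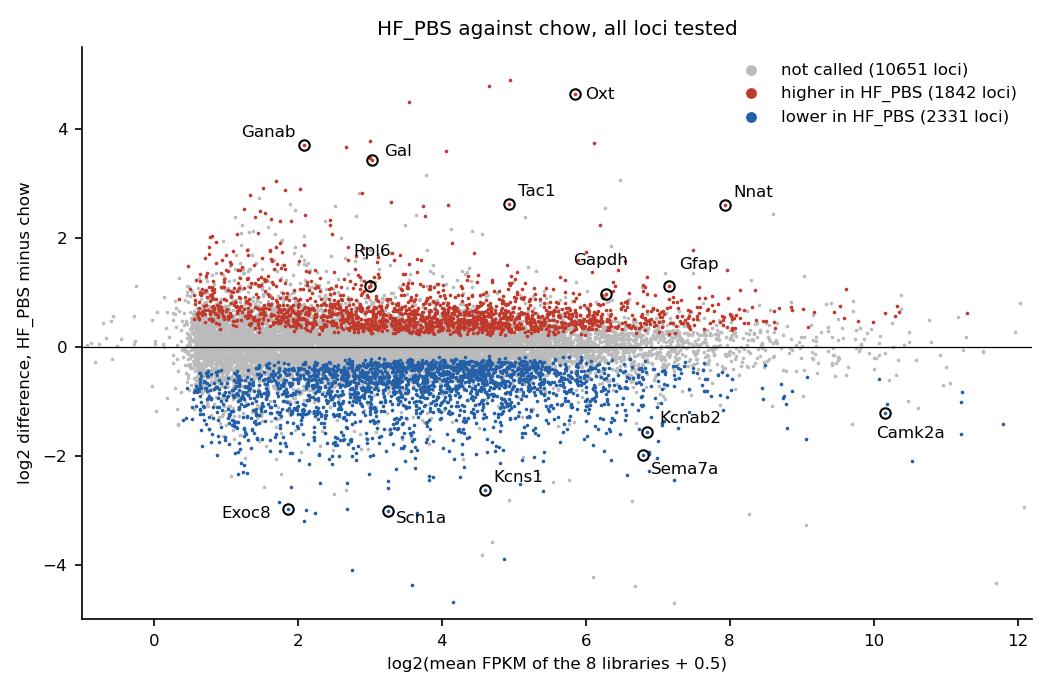
Difference HF_PBS minus chow on the log2(FPKM + 0.5) scale against the mean log2 level of each locus, with 1842 loci called higher, 2331 called lower and the rest in grey, and 41 loci outside the axes. Named genes are labelled; Oxt, Ganab and Gal stand at the top and Scn1a and Exoc8 at the bottom.

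The plot of differences by level shows calls in both directions across the whole range of expression. The number of calls rests on a few libraries. Without HF_PBS libraries 3 and 4 there were 101 calls (27 higher, 74 lower; 0.681% of loci; 3352 at an unadjusted p under 0.05), and 99 of them were among the 4173. Without HF_PBS libraries 1 and 2, a choice made after seeing the data, there were 5555 (2721 higher, 2834 lower; 37.5%). Both fits compare 2 libraries with 4, but each estimates its own spread, and their precision was not compared. All 4173 loci kept the direction of their difference in both fits. Over the 1842 loci called higher in the full fit, the median difference was 0.56 with all libraries, 0.41 without libraries 3 and 4 and 0.70 without libraries 1 and 2. Over the 2331 called lower, it was -0.68, -0.50 and -0.85. Leaving out 1 library at a time gave 2013 calls without HF_PBS library 4, 2828 without HF_PBS library 3, 2630 without chow library 4, 2706 without chow library 3 and 2865 to 4629 without any of the other 4. Of 217 called genes followed one by one, 133 were called in all 8 fits that left out 1 library, and 207 were not called without HF_PBS libraries 3 and 4. Genes described below were called in all 8 such fits unless the text says otherwise. Among the gene lists described below, those with called members without HF_PBS libraries 3 and 4 were cytosolic ribosomal proteins and glycolysis with 2 higher each, mitochondrial ribosomal proteins with 1 higher, and presynaptic genes, large skeleton proteins and the heat shock list with 1 lower each. Every other list had 0 called members in that fit. Counts of 1 or 2 in a list also changed in several of the fits without 1 library, and are given below without those changes except where stated. Every count in a list is to be read beside the 12.4% higher and 15.7% lower over all loci.

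**Figure D3:**
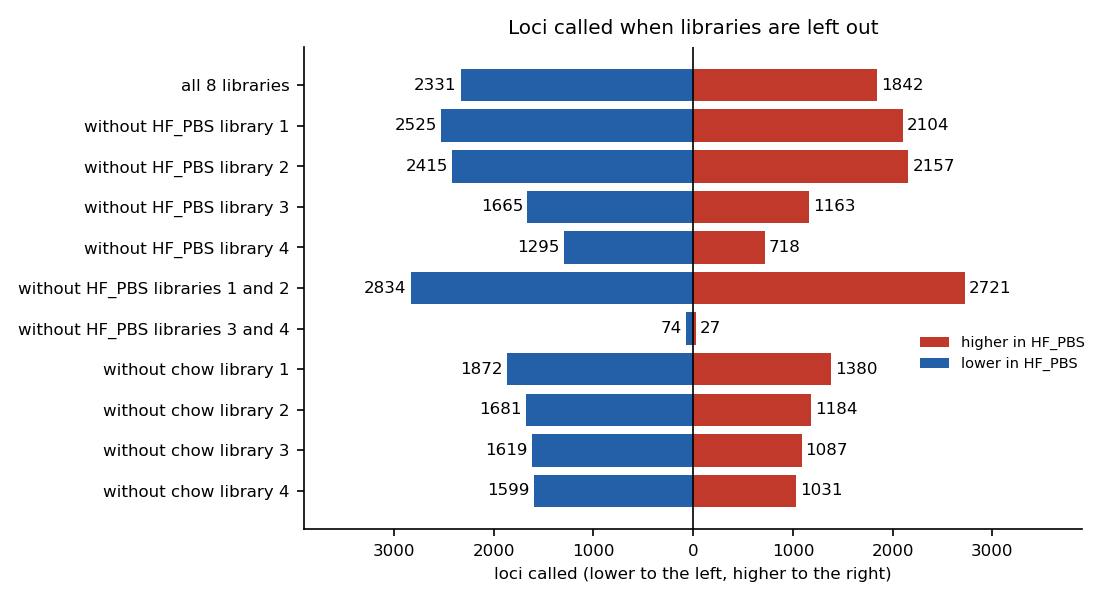
Number of loci called higher and lower in HF_PBS than in chow at an adjusted p under 0.05, with all libraries and with libraries left out. The count is 1842 higher and 2331 lower with all, 27 and 74 without HF_PBS libraries 3 and 4, and 2721 and 2834 without HF_PBS libraries 1 and 2.

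HF_PBS was also unlike the group on the same diet without injections. HF against chow gave 0 calls (1020 loci at an unadjusted p under 0.05), and HF_PBS against HF gave 3536 (23.9%; 1580 higher, 1956 lower). These comparisons share libraries with HF_PBS against chow, so their values are set side by side below and not counted against each other. HF_5AzaD, whose rats were injected as well, gave 2414 calls against chow (16.3%), 7.18% of loci higher and 9.11% lower. Among genes described below, HF_5AzaD averaged 3.54 ± 2.89 FPKM for Scn1a, 1002 ± 158 for Camk2a, 9.36 ± 2.10 for Rpl6 and 96.4 ± 16.9 for Gapdh. HF_5AzaD minus chow was -2.33 (adjusted p = 0.0158) for Scn1a and -0.66 (adjusted p = 0.0947) for Camk2a. It was 0.94 (adjusted p = 0.00689) for Rpl6 and 0.87 (adjusted p = 0.00803) for Gapdh.

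Ion channels of neuronal excitability were lower in HF_PBS cortex for a large share of the genes tested. Of 34 voltage-gated potassium channel genes tested, 18 were lower and 0 higher, with a median of -0.61, beside 15.7% lower and a median of 0.01 over all loci. Of 8 sodium channel genes, 3 were lower and 0 higher (median -1.01), and of 15 calcium channel genes, 6 were lower and 2 higher (median -0.37). None of the 18, 3 or 6 lower genes was called without HF_PBS libraries 3 and 4. With 1 library left out, the potassium count was 11, 9, 6 and 10 without chow libraries 1 to 4, and 19, 20, 6 and 5 without HF_PBS libraries 1 to 4. The calcium count fell to 3 without HF_PBS library 3 or 4, and was 4 to 7 otherwise, with 0 to 2 higher. The sodium count was 2 without HF_PBS library 3 or 4 or without chow library 1, 2 or 3.

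Scn1a, the sodium channel that drives firing of fast-spiking interneurons and is known for its loss in childhood epilepsy in humans, had the largest called decrease among genes with 1 symbol whose groups did not overlap. It had 2.92, 2.56, 1.09 and 0.578 FPKM in HF_PBS libraries 1 to 4, against 18.2, 14.5, 18.6 and 13.6 FPKM in chow libraries 1 to 4. All HF_PBS libraries lay below every chow library, with libraries 3 and 4 lowest, and the difference was -3.01 ± 0.53 (SE, adjusted p = 0.00324). Without HF_PBS libraries 3 and 4 it was -2.36 (adjusted p = 0.068). In HF cortex Scn1a averaged 9.97 ± 7.16 FPKM, and HF_PBS minus HF was -2.12 (adjusted p = 0.0125). Scn8a, the main sodium channel of the axon initial segment, averaged 29.9 ± 11.3 FPKM in HF_PBS and 62.2 ± 3.58 FPKM in chow, with a difference of -1.12 ± 0.29 (SE, adjusted p = 0.0135) and, without libraries 3 and 4, -0.67 (adjusted p = 0.213).

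Kcnab2, a cytoplasmic beta subunit that binds Shaker-type potassium channels, had 72.2, 70.4, 45.2 and 48.7 FPKM in HF_PBS libraries 1 to 4, against 165, 173, 175 and 172 FPKM in chow libraries 1 to 4. The 4 chow libraries were close to each other and every HF_PBS library lay far below them. The difference was -1.56 ± 0.25 (SE, adjusted p = 0.00271), and without libraries 3 and 4 it was -1.26 (adjusted p = 0.055). Kcnj9, a subunit of the GIRK channels that inhibitory receptors open through G proteins, had 33.7, 17.0, 8.002 and 8.69 FPKM in HF_PBS libraries 1 to 4, against 74.0, 51.8, 61.3 and 51.7 FPKM in chow libraries 1 to 4. HF_PBS library 1 lay closest to chow and libraries 3 and 4 farthest, and the difference was -2.02 ± 0.43 (SE, adjusted p = 0.0056). Without libraries 3 and 4 it was -1.28 (adjusted p = 0.11). Kcnh7, of the ERG potassium channel family, averaged 1.58 ± 0.973 FPKM in HF_PBS and 10.3 ± 1.54 FPKM in chow, with a difference of -2.50 ± 0.47 (SE, adjusted p = 0.00394) and, without libraries 3 and 4, -1.89 (adjusted p = 0.0835). The printed starts of Kcnab2 and Kcnj9, with 14 and 3 CpG pairs, show that these lower genes do not share a CpG density there.

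Cacna1i, a low-threshold (T-type) calcium channel, had 15.0, 16.2, 11.1 and 12.7 FPKM in HF_PBS libraries 1 to 4, against 33.2, 35.2, 34.6 and 33.3 FPKM in chow libraries 1 to 4. Groups were tight and wide apart, with a difference of -1.29 ± 0.22 (SE, adjusted p = 0.00318) and, without libraries 3 and 4, -1.10 (adjusted p = 0.0657). Cacna2d3, an auxiliary calcium channel subunit, averaged 17.4 ± 6.55 FPKM in HF_PBS and 50.7 ± 5.81 FPKM in chow, with a difference of -1.59 ± 0.37 (SE, adjusted p = 0.00843) and, without libraries 3 and 4, -1.13 (adjusted p = 0.146).

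**Figure D4:**
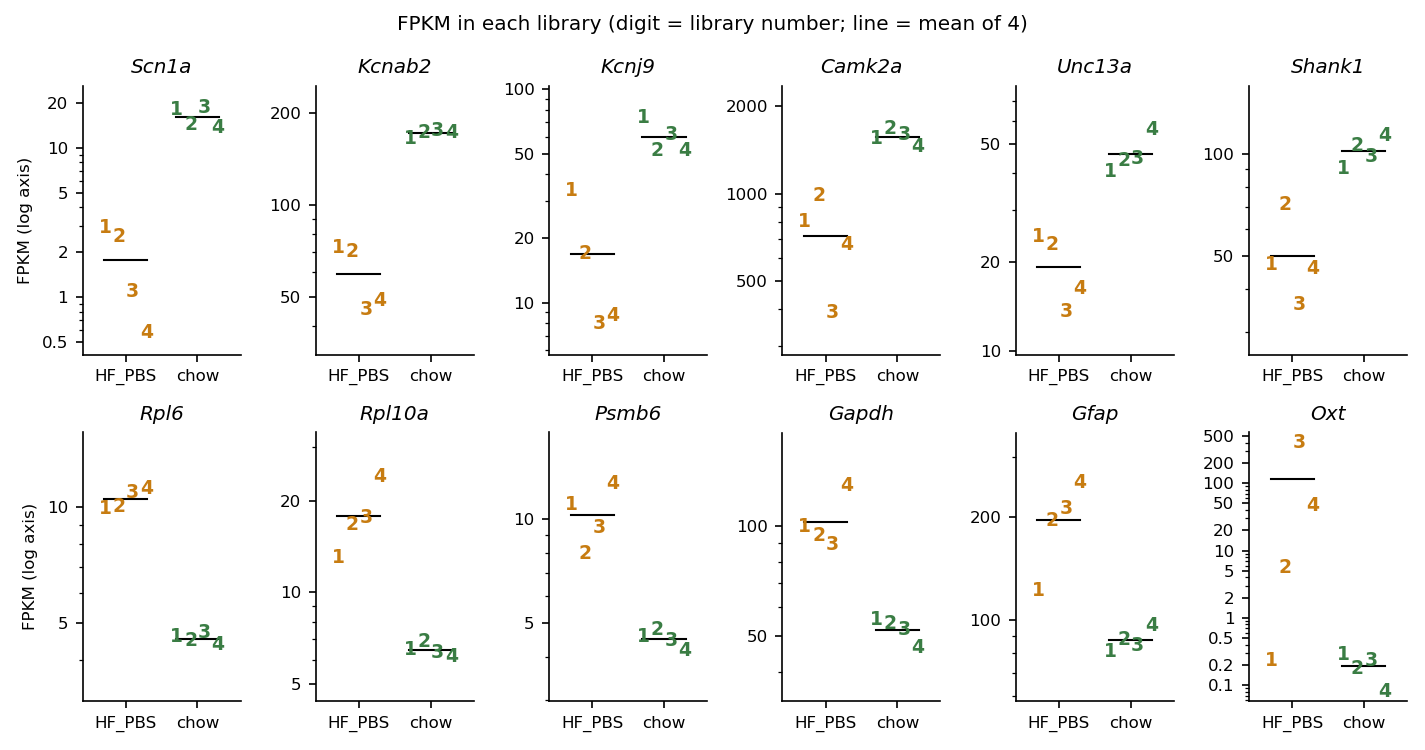
FPKM on a log axis of 12 genes in the 4 HF_PBS libraries (left in each panel) and the 4 chow libraries (right); digits are library numbers and lines are means. Scn1a, Kcnab2, Kcnj9, Camk2a, Unc13a and Shank1 lie lower in every HF_PBS library, and Rpl6, Rpl10a, Psmb6, Gapdh and Gfap lie higher in every HF_PBS library, while Oxt overlaps chow in HF_PBS library 1.

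Among genes of vesicle release most of those called were lower, as the panels of genes by library show for Unc13a. Of 42 presynaptic genes tested, 17 were lower and 1 higher, with a median of -0.54, and 1 stayed lower without HF_PBS libraries 3 and 4. The count of lower genes was 8 without HF_PBS library 3, 7 without HF_PBS library 4, 11 without chow library 3 or 4 and 12 to 24 without any of the others. Unc13a, the Munc13 protein that primes vesicles, had 24.3, 22.9, 13.6 and 16.3 FPKM in HF_PBS libraries 1 to 4, against 40.5, 44.1, 44.9 and 56.2 FPKM in chow libraries 1 to 4. No HF_PBS library reached the chow range, and the difference was -1.27 ± 0.23 (SE, adjusted p = 0.00324), or -0.95 (adjusted p = 0.068) without libraries 3 and 4. Rims3, an active-zone protein, averaged 18.1 ± 6.86 FPKM in HF_PBS and 66.2 ± 5.73 FPKM in chow (difference -1.94 ± 0.46, adjusted p = 0.00948; without libraries 3 and 4, -1.52, adjusted p = 0.131). Cplx2, a complexin that clamps the SNARE complex, averaged 262 ± 61.6 FPKM in HF_PBS and 435 ± 21.6 FPKM in chow (difference -0.76 ± 0.17, adjusted p = 0.0067; without libraries 3 and 4, -0.51, adjusted p = 0.111). The higher gene was Syt5, a synaptotagmin, at 189.8 ± 31.1 FPKM in HF_PBS and 106 ± 7.25 FPKM in chow (difference 0.82 ± 0.18, adjusted p = 0.00591; without libraries 3 and 4, 0.83, adjusted p = 0.0652).

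On the receiving side of the synapse, the called scaffold and calcium-dependent kinase genes were all lower. Of 22 postsynaptic scaffold genes, 12 were lower and 0 higher (median -0.68), and of 15 genes of calmodulin-dependent kinases and phosphatases, 7 were lower and 0 higher (median -0.44). None of these 12 and 7 was called without HF_PBS libraries 3 and 4. The scaffold count was 8 without HF_PBS library 3 and 9 to 16 without any other library, and the kinase count was 5 to 7. Camk2a, the alpha subunit of CaMKII, a kinase of long-term potentiation that is among the most abundant neuronal messages, had 806, 989.7, 391.6 and 669.6 FPKM in HF_PBS libraries 1 to 4, against 1544, 1678, 1598 and 1453 FPKM in chow libraries 1 to 4. HF_PBS library 3 was lowest and library 2 highest, still below every chow library. The difference was -1.21 ± 0.27 (SE, adjusted p = 0.00644), or -0.81 (adjusted p = 0.0959) without libraries 3 and 4. HF cortex averaged 1583 ± 511 FPKM, and HF_PBS minus HF was -1.17 (adjusted p = 0.00813). A second, minor locus with the symbol Camk2a was also lower, by -1.12 (adjusted p = 0.015).

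Shank1, a scaffold that links glutamate receptors to the actin skeleton of spines, had 47.1, 70.8, 35.9 and 46.1 FPKM in HF_PBS libraries 1 to 4, against 90.5, 106, 98.0 and 113 FPKM in chow libraries 1 to 4. Again library 2 was the highest of HF_PBS and library 3 the lowest, and the difference was -1.06 ± 0.24 (SE, adjusted p = 0.00724), or -0.81 (adjusted p = 0.119) without libraries 3 and 4. Camkk1, which activates other calmodulin-dependent kinases, averaged 47.4 ± 21.2 FPKM in HF_PBS and 115 ± 8.91 FPKM in chow (difference -1.38 ± 0.28, adjusted p = 0.00524; without libraries 3 and 4, -0.84, adjusted p = 0.0987).

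Receptor subunits were called in both directions. Of 8 NMDA receptor genes 2 were lower and 1 higher, of 13 AMPA and kainate receptor and auxiliary genes 2 were lower and 1 higher, and of 14 GABA receptor genes 4 were lower and 2 higher. The shares called were 37.5%, 23.1% and 42.9%, beside 28.2% over all loci. The AMPA and kainate count was 0 to 4 lower and 0 or 1 higher without 1 library, with 0 in both directions without HF_PBS library 4. The GABA count was 2 lower without HF_PBS library 3 or 4 or chow library 1, 2 or 3, and 0 higher without HF_PBS library 3 or 4 or chow library 2 or 3. Of 6 metabotropic glutamate receptor genes 0 were called by limma in either direction (0 higher and 1 lower at an unadjusted p under 0.05), and their median was -0.21. Grin2a and Grin2b, the regulatory subunits of most cortical NMDA receptors, were the 2 lower NMDA genes. Grin2a averaged 13.03 ± 6.90 FPKM in HF_PBS and 33.9 ± 2.00 FPKM in chow (difference -1.52 ± 0.39, adjusted p = 0.0136; without libraries 3 and 4, -0.83, adjusted p = 0.213). Grin2b averaged 12.19 ± 4.93 FPKM in HF_PBS and 23.7 ± 2.92 FPKM in chow (difference -1.01 ± 0.26, adjusted p = 0.0131; without libraries 3 and 4, -0.54, adjusted p = 0.205).

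Of 21 genes on the list of large skeleton proteins of axon and dendrite, 7 were lower and 1 higher, with a median of -0.32. The count of lower genes was 7 or 8 whichever library was left out. The higher gene was Trrap, a listed member that is not itself a skeleton protein (difference 0.51 ± 0.11, SE, adjusted p = 0.0052). Without libraries 3 and 4 its difference was 0.39 (adjusted p = 0.0974). Sptbn4, the beta-IV spectrin of the axon initial segment, had 36.9, 31.1, 27.1 and 30.0 FPKM in HF_PBS libraries 1 to 4, against 46.6, 49.3, 52.1 and 53.6 FPKM in chow libraries 1 to 4. It was called with all libraries (-0.69 ± 0.10, adjusted p = 0.00213) and without HF_PBS libraries 3 and 4 (-0.56, adjusted p = 0.0495). Map1a, a microtubule-binding protein of dendrites, averaged 53.5 ± 14.3 FPKM in HF_PBS and 133 ± 17.6 FPKM in chow (difference -1.34 ± 0.27, adjusted p = 0.00512; without libraries 3 and 4, -1.09, adjusted p = 0.086). For the neuronal genes as a whole, the sum of the excitatory marker list did not separate the groups, and its part in these differences was not tested.

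**Figure D5:**
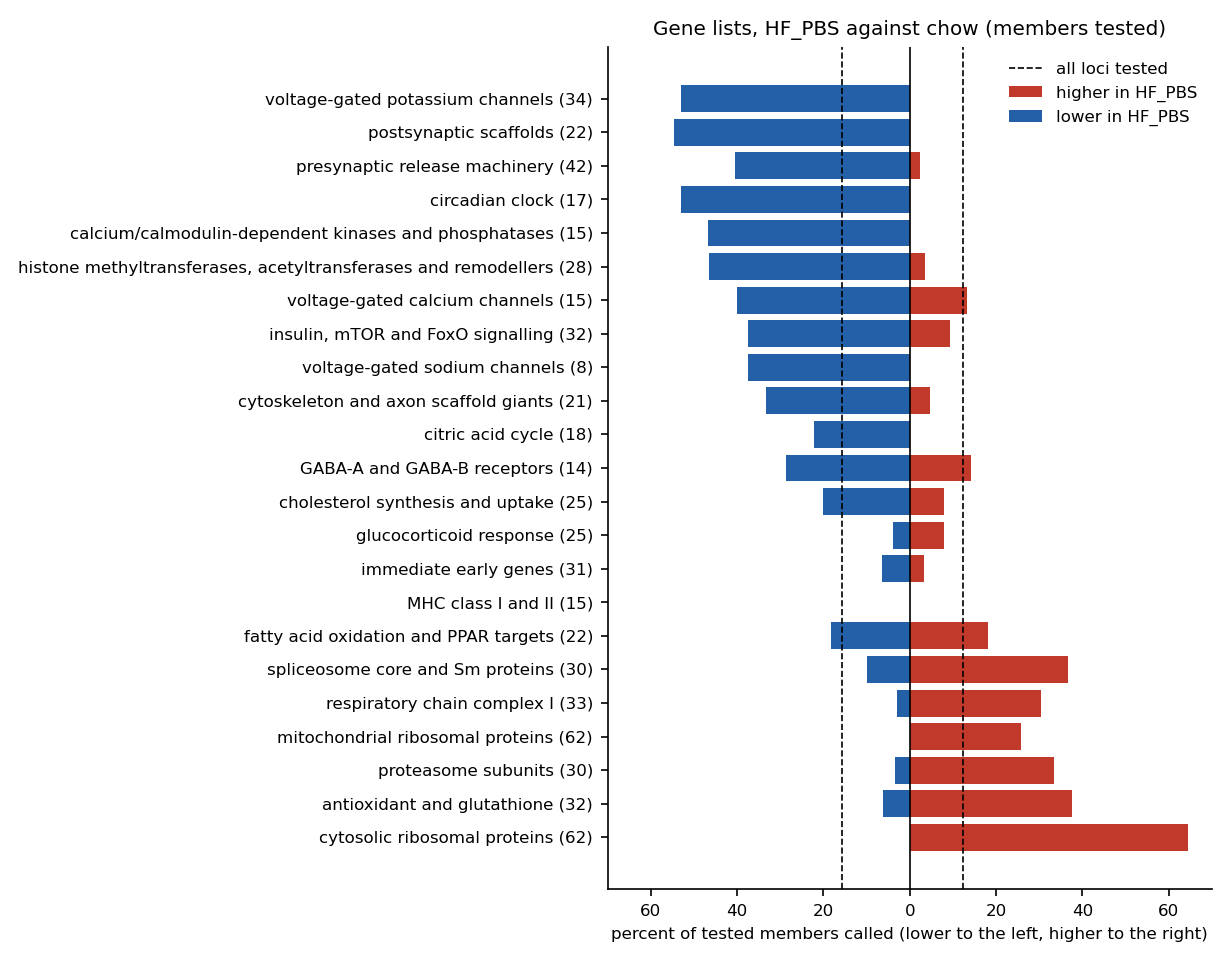
Percent of tested members called lower (left) and higher (right) in HF_PBS than in chow for 23 gene lists, with dashed lines at 15.7% lower and 12.4% higher, the shares over all loci. Potassium channels, scaffolds and clock genes extend farthest to the left, and cytosolic ribosomal proteins farthest to the right.

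Genes that make and degrade proteins were higher in HF_PBS cortex for many members, as the plot of shares by list shows. RNA quality and transcript length were not examined, and their part in the lists above and below was not tested. Of 62 cytosolic ribosomal protein genes, 40 were higher and 0 lower, with a median of 0.62 and 56 positive differences, beside 12.4% higher over all loci. Their FPKM summed to 5241 to 8727 in HF_PBS libraries and to 3912 to 4587 in chow libraries, with no overlap. The count was 24 without HF_PBS library 4, 26 without chow library 4 and 28 to 41 without any other library, and 2 of 40 remained without HF_PBS libraries 3 and 4. Ribosomal protein genes have many near-identical copies in the rat genome. How the authors' counting split shared reads is not stated, so levels of single genes are uncertain.

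Rpl10a, a protein of the large ribosomal subunit, had 13.01, 16.8, 17.6 and 24.0 FPKM in HF_PBS libraries 1 to 4, against 6.46, 6.90, 6.34 and 6.14 FPKM in chow libraries 1 to 4. The lowest HF_PBS value, in library 1, was still well above the highest chow value, and the difference was 1.36 ± 0.20 (SE, adjusted p = 0.0023). Rpl10a was also called without HF_PBS libraries 3 and 4, at 1.13 (adjusted p = 0.0495). Rpl6, another large-subunit protein, had 9.94, 10.0, 10.9 and 11.2 FPKM in HF_PBS libraries 1 to 4, against 4.62, 4.50, 4.72 and 4.39 FPKM in chow libraries 1 to 4, with both groups tight, and a difference of 1.12 ± 0.15 (SE, adjusted p = 0.00211), or 1.05 (adjusted p = 0.0435) without libraries 3 and 4. In HF cortex Rpl6 averaged 4.87 ± 1.08 FPKM and Rpl10a 6.71 ± 1.70 FPKM, and HF_PBS minus HF was 1.06 (adjusted p = 0.00212) for Rpl6 and 1.34 (adjusted p = 0.00212) for Rpl10a. Rps15a, of the small subunit, averaged 17.5 ± 3.37 FPKM in HF_PBS and 7.49 ± 0.815 FPKM in chow (difference 1.16 ± 0.19, adjusted p = 0.00286; without libraries 3 and 4, 0.94, adjusted p = 0.062).

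Translation factors followed in part, with 11 of 36 higher and 3 lower (median 0.22), and without 1 library 7 to 16 were higher, 7 without HF_PBS library 4 or chow library 4, and 1 to 4 were lower. Tpt1, a small growth-related protein that binds elongation factors, had 199.7, 152, 198 and 283 FPKM in HF_PBS libraries 1 to 4, against 126, 115, 114 and 95.5 FPKM in chow libraries 1 to 4. HF_PBS library 4 was highest, and the difference was 0.85 ± 0.15 (SE, adjusted p = 0.0032), or 0.63 (adjusted p = 0.0533) without libraries 3 and 4. Btf3, which accompanies new chains at the ribosome, averaged 31.2 ± 6.85 FPKM in HF_PBS and 15.5 ± 1.80 FPKM in chow (difference 0.97 ± 0.21, adjusted p = 0.00599; without libraries 3 and 4, 0.84, adjusted p = 0.0845).

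The proteasome, which degrades tagged proteins, had 10 of 30 subunit genes higher and 1 lower (median 0.19), and 6 to 11 higher without 1 library, 6 of them without HF_PBS library 4 or chow library 4. Psmb6, the subunit with the caspase-like protease activity, had 11.0, 7.98, 9.499 and 12.7 FPKM in HF_PBS libraries 1 to 4, against 4.59, 4.79, 4.47 and 4.17 FPKM in chow libraries 1 to 4. Even the lowest HF_PBS library was above every chow library, and the difference was 1.09 ± 0.17 (SE, adjusted p = 0.00271), or 0.98 (adjusted p = 0.0533) without libraries 3 and 4. Psmd1, of the regulatory cap, averaged 77.9 ± 8.72 FPKM in HF_PBS and 51.7 ± 1.52 FPKM in chow (difference 0.58 ± 0.10, adjusted p = 0.0032; without libraries 3 and 4, 0.51, adjusted p = 0.0601). Psmd2, a neighbour of Psmd1 in the same cap, was the lower gene, at 58.8 ± 7.27 FPKM in HF_PBS and 75.4 ± 2.85 FPKM in chow (difference -0.36 ± 0.09, adjusted p = 0.012; without libraries 3 and 4, -0.25, adjusted p = 0.181). Of 30 core splicing genes, 11 were higher and 3 lower (median 0.30), with 6 higher without HF_PBS library 4 or chow library 4 and 0 to 3 lower without 1 library. Srsf2, a serine- and arginine-rich splicing factor, averaged 97.7 ± 11.0 FPKM in HF_PBS and 64.0 ± 3.20 FPKM in chow (difference 0.60 ± 0.12, adjusted p = 0.00495; without libraries 3 and 4, 0.51, adjusted p = 0.086).

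Mitochondrial lists had called genes in both directions. Of 33 complex I genes 10 were higher and 1 lower (median 0.30), of 23 genes of complexes II to IV 3 were higher and 1 lower (median 0.15), and of 16 ATP synthase genes 4 were higher and 0 lower (median 0.35). The shares called in either direction were 33.3%, 17.4% and 25%, beside 28.2% over all loci. The complex I count was 2 without HF_PBS library 4, 3 without chow library 4, 6 without HF_PBS library 3 and 7 to 16 without any other. The count for complexes II to IV was 0 higher without HF_PBS library 4 or chow library 4. The ATP synthase count was 1 without HF_PBS library 1 or 4 or chow library 2, 3 or 4, 2 without HF_PBS library 3 and 9 without HF_PBS library 2. Of 62 mitochondrial ribosomal protein genes 16 were higher and 0 lower (median 0.26), with 5 higher without HF_PBS library 4 or chow library 4 and 10 without chow library 3. Of 18 citric acid cycle genes 4 were lower and 0 higher (median -0.13), beside 15.7% lower over all loci, with 1 lower without HF_PBS library 4 and 3 or 4 without any other library. The 13 genes of the mitochondrial genome itself had no tested locus.

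Ndufa11, an accessory subunit of complex I, had 147, 127, 159.8 and 190.1 FPKM in HF_PBS libraries 1 to 4, against 104, 104, 105 and 92.2 FPKM in chow libraries 1 to 4. All HF_PBS libraries were above all chow libraries, by 0.61 ± 0.13 (SE, adjusted p = 0.00611), or 0.43 (adjusted p = 0.101) without libraries 3 and 4. Mrpl41, of the mitochondrial ribosome, had 57.9, 51.0, 50.4 and 61.5 FPKM in HF_PBS libraries 1 to 4, against 33.3, 38.8, 35.2 and 33.1 FPKM in chow libraries 1 to 4, and was called with all libraries (0.64 ± 0.09, adjusted p = 0.00211) and without HF_PBS libraries 3 and 4 (0.63, adjusted p = 0.0376). Ogdh, the alpha-ketoglutarate dehydrogenase of the citric acid cycle, had 39.6, 44.04, 39.7 and 26.6 FPKM in HF_PBS libraries 1 to 4, against 63.7, 63.1, 62.0 and 70.9 FPKM in chow libraries 1 to 4. It was lower in every HF_PBS library and lowest in library 4, with a difference of -0.81 ± 0.17 (SE, adjusted p = 0.00593), or -0.63 (adjusted p = 0.0849) without libraries 3 and 4. Sdha, shared by the cycle and complex II, averaged 106 ± 10.4 FPKM in HF_PBS and 140.3 ± 4.85 FPKM in chow (difference -0.41 ± 0.08, adjusted p = 0.00524; without libraries 3 and 4, -0.30, adjusted p = 0.0908).

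Among 14 glycolysis genes, 3 were higher and 1 lower (median 0.15), 28.6% called beside 28.2% over all loci, and 2 to 4 were higher without 1 library. Gapdh, the glyceraldehyde-phosphate dehydrogenase often used to normalize expression, had 99.9, 94.3, 88.9 and 129 FPKM in HF_PBS libraries 1 to 4, against 55.5, 54.2, 52.0 and 46.5 FPKM in chow libraries 1 to 4. The groups did not overlap and the difference was 0.97 ± 0.15 (SE, adjusted p = 0.00271), still called without HF_PBS libraries 3 and 4 at 0.90 (adjusted p = 0.0441). Eno1, the ubiquitous enolase, had 119, 127, 116 and 150.5 FPKM in HF_PBS libraries 1 to 4, against 62.3, 66.6, 61.8 and 66.8 FPKM in chow libraries 1 to 4, again with no overlap. Its difference was 0.98 ± 0.14 (SE, adjusted p = 0.00211), and 0.93 (adjusted p = 0.0397) without libraries 3 and 4. In HF cortex Gapdh averaged 51.1 ± 9.07 FPKM and Eno1 79.2 ± 10.5 FPKM, and HF_PBS minus HF was 1.01 (adjusted p = 0.00212) and 0.69 (adjusted p = 0.00474). Gapdh and Eno1 have many processed copies in the genome, so the single-locus levels are uncertain. The printed Gapdh start carries the run TATAAA, which the other 5 printed windows lack.

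Chromatin regulators were lower more often than higher. Of 28 histone-modifying and remodelling genes, 13 were lower and 1 higher (median -0.23), 50% called beside 28.2% over all loci. The count of lower genes was 6 without HF_PBS library 4 or chow library 4, 7 without chow library 3, 8 without chow library 2 and 11 to 13 otherwise. Ash1l, a histone H3 lysine methyltransferase, had 19.5, 20.4, 13.8 and 14.8 FPKM in HF_PBS libraries 1 to 4, against 30.6, 30.5, 30.0 and 30.3 FPKM in chow libraries 1 to 4. Chow libraries were nearly equal and HF_PBS libraries 3 and 4 were lowest, with a difference of -0.83 ± 0.15 (SE, adjusted p = 0.00324), or -0.59 (adjusted p = 0.0682) without libraries 3 and 4. Chd5, a neuronal chromatin remodeller, averaged 14.1 ± 3.38 FPKM in HF_PBS and 32.1 ± 9.69 FPKM in chow (difference -1.16 ± 0.24, adjusted p = 0.00542; without libraries 3 and 4, -0.88, adjusted p = 0.0983). Ehmt1, another histone H3 lysine methyltransferase, averaged 2.65 ± 0.393 FPKM in HF_PBS and 4.36 ± 0.346 FPKM in chow (difference -0.63 ± 0.14, adjusted p = 0.0064; without libraries 3 and 4, -0.57, adjusted p = 0.0905).

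Of 14 genes that write, remove or read DNA methylation, 4 were lower and 1 higher (median -0.12), with 2 lower without HF_PBS library 4. With all libraries this is 35.7% called, beside 28.2% over all loci. Dnmt3a, the main de novo DNA methyltransferase of mature neurons, had 5.36, 5.68, 5.30 and 5.19 FPKM in HF_PBS libraries 1 to 4, against 6.49, 6.71, 7.39 and 7.79 FPKM in chow libraries 1 to 4. The HF_PBS libraries were nearly equal and all below chow, and the difference was small at -0.37 ± 0.09 (SE, adjusted p = 0.00901), or -0.33 (adjusted p = 0.104) without libraries 3 and 4. HF cortex averaged 6.53 ± 0.411 FPKM, and HF_PBS minus HF was -0.26 (adjusted p = 0.0454). Dnmt1, the maintenance methyltransferase and the classical target of 5-AzaD, had 6.49, 6.42, 5.85 and 6.20 FPKM in HF_PBS libraries 1 to 4, against 6.94, 7.09, 7.23 and 7.71 FPKM in chow libraries 1 to 4. Its groups did not overlap, but the difference of -0.20 ± 0.08 (SE, adjusted p = 0.0636) missed the threshold. Zbtb38, a zinc-finger reader of methylated CpG, averaged 8.28 ± 1.23 FPKM in HF_PBS and 12.4 ± 0.981 FPKM in chow (difference -0.56 ± 0.14, adjusted p = 0.0114; without libraries 3 and 4, -0.43, adjusted p = 0.165).

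Insulin and mTOR signalling, through which neurons sense nutrients, had 12 of 32 genes lower and 3 higher, with a median of -0.31, and the count of lower genes was 7 without HF_PBS library 4 and 9 to 14 without any other. The count of higher genes was 1 without HF_PBS library 4 or chow library 1 or 3. Foxo3, a transcription factor that insulin signalling keeps out of the nucleus, had 10.2, 9.96, 6.59 and 6.33 FPKM in HF_PBS libraries 1 to 4, against 17.0, 15.6, 17.97 and 20.3 FPKM in chow libraries 1 to 4. HF_PBS libraries 1 and 2 lay between chow and libraries 3 and 4, and the difference was -1.08 ± 0.24 (SE, adjusted p = 0.00685), or -0.78 (adjusted p = 0.127) without libraries 3 and 4. Pdpk1, the kinase that activates Akt, had 22.9, 24.5, 16.04 and 17.0 FPKM in HF_PBS libraries 1 to 4, against 34.2, 31.1, 31.8 and 33.6 FPKM in chow libraries 1 to 4 and a difference of -0.71 ± 0.15 (SE, adjusted p = 0.00612), or -0.46 (adjusted p = 0.117) without libraries 3 and 4. Its groups did not overlap. Pik3cb, a catalytic subunit of phosphoinositide 3-kinase, averaged 2.10 ± 0.756 FPKM in HF_PBS and 4.88 ± 0.281 FPKM in chow (difference -1.10 ± 0.25, adjusted p = 0.00707; without libraries 3 and 4, -0.78, adjusted p = 0.104). Mtor, the nutrient-sensing kinase, went the other way, at 31.3 ± 3.70 FPKM in HF_PBS and 22.9 ± 1.80 FPKM in chow (difference 0.44 ± 0.11, adjusted p = 0.011; without libraries 3 and 4, 0.40, adjusted p = 0.103).

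Of 20 receptors and mediators of leptin, appetite and energy signals, 5 were lower and 2 higher (median -0.26), with 3 lower without HF_PBS library 3 or 4. With all libraries 35% of them were called, beside 28.2% over all loci. Stat3, the transcription factor downstream of the leptin receptor, had 11.5, 13.6, 11.0 and 9.95 FPKM in HF_PBS libraries 1 to 4, against 16.3, 15.9, 16.8 and 15.6 FPKM in chow libraries 1 to 4. Every HF_PBS library was below chow and the difference was -0.48 ± 0.10 (SE, adjusted p = 0.00566), or -0.35 (adjusted p = 0.1) without libraries 3 and 4. Crhr1, the receptor of the stress hormone CRH, averaged 4.48 ± 1.89 FPKM in HF_PBS and 10.6 ± 0.888 FPKM in chow (difference -1.23 ± 0.28, adjusted p = 0.00707; without libraries 3 and 4, -0.75, adjusted p = 0.131). Glucocorticoid targets were called less often against chow: 2 of 25 were higher and 1 lower, 12% called beside 28.2% over all loci. In HF_PBS against HF, 7 of these 25 were higher and 0 lower (median 0.47), beside 10.7% higher over all loci. The median of HF minus chow was -0.33, with 0 called. Fkbp5, a chaperone of the glucocorticoid receptor whose message is induced by stress hormones, had 14.1, 13.4, 10.9 and 8.40 FPKM in HF_PBS libraries 1 to 4, against 12.99, 15.1, 15.0 and 15.9 FPKM in chow libraries 1 to 4, and its difference of -0.34 ± 0.17 (SE, adjusted p = 0.136) missed the threshold.

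The circadian clock list had 9 of 17 genes lower and 0 higher, with a median of -0.48 and 16 negative differences. The count was 4 without HF_PBS library 4, 6 without HF_PBS library 3 or chow library 3, and 7 to 9 otherwise, and 0 without HF_PBS libraries 3 and 4. Cry2, a cryptochrome that represses the clock's activators, had 29.5, 29.4, 22.7 and 25.7 FPKM in HF_PBS libraries 1 to 4, against 38.4, 37.8, 40.6 and 43.9 FPKM in chow libraries 1 to 4. Tef, a clock-output transcription factor, had 49.4, 55.2, 51.5 and 45.4 FPKM in HF_PBS libraries 1 to 4, against 69.2, 76.9, 76.5 and 77.9 FPKM in chow libraries 1 to 4. In both genes the HF_PBS libraries lay together below the chow range, with differences of -0.58 ± 0.11 (SE, adjusted p = 0.0043) for Cry2 and -0.57 ± 0.12 (SE, adjusted p = 0.00529) for Tef. Without libraries 3 and 4 they were -0.44 (adjusted p = 0.0798) and -0.52 (adjusted p = 0.0812). Csnk1d, a kinase that marks clock proteins for decay, averaged 37.0 ± 3.54 FPKM in HF_PBS and 49.8 ± 0.857 FPKM in chow (difference -0.43 ± 0.08, adjusted p = 0.00444; without libraries 3 and 4, -0.36, adjusted p = 0.0644). The labels give no time of day for the dissections, and its part in these differences was not tested.

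Immediate early genes, which neurons switch on within minutes of activity, gave 2 lower and 1 higher of 31, or 9.68% called beside 28.2% over all loci. Fos had 13.1, 26.7, 17.7 and 24.4 FPKM in HF_PBS libraries 1 to 4, against 20.8, 12.02, 38.7 and 33.97 FPKM in chow libraries 1 to 4, and Arc had 47.7, 90.5, 50.7 and 86.1 FPKM in HF_PBS libraries 1 to 4, against 61.9, 55.8, 139 and 123 FPKM in chow libraries 1 to 4. Both varied as much within a group as between the groups, with differences of -0.28 ± 0.57 (SE, adjusted p = 0.736) and -0.41 ± 0.55 (SE, adjusted p = 0.591). Fosl2, a Fos relative, was lower, with 5.48, 6.96, 3.63 and 6.10 FPKM in HF_PBS libraries 1 to 4, against 10.2, 9.73, 12.1 and 21.2 FPKM in chow libraries 1 to 4, and a difference of -1.16 ± 0.26 (SE, adjusted p = 0.0069), or -0.98 (adjusted p = 0.0954) without libraries 3 and 4. Egr3, an activity-induced zinc-finger factor, averaged 28.6 ± 11.4 FPKM in HF_PBS and 57.8 ± 9.48 FPKM in chow (difference -1.08 ± 0.29, adjusted p = 0.0145; without libraries 3 and 4, -0.59, adjusted p = 0.223). Jund, the Jun relative expressed at rest, was the higher gene, at 99.4 ± 7.27 FPKM in HF_PBS and 69.1 ± 2.71 FPKM in chow (difference 0.52 ± 0.12, adjusted p = 0.00867; without libraries 3 and 4, 0.47, adjusted p = 0.103). A second, minor Jund locus was not called (4.69 FPKM in HF_PBS, 5.09 FPKM in chow, difference -0.11, adjusted p = 0.641).

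Of 12 genes for neurotrophins and plasticity, 2 were higher and 1 lower, 25% called beside 28.2% over all loci. Gap43, a growth-cone protein of sprouting axons, had 423, 391, 403 and 539 FPKM in HF_PBS libraries 1 to 4, against 179, 216, 182 and 281 FPKM in chow libraries 1 to 4. The HF_PBS range lay wholly above that of chow, with a difference of 1.04 ± 0.21 (SE, adjusted p = 0.00449), or 0.94 (adjusted p = 0.0735) without libraries 3 and 4. Sort1, a sorting receptor for pro-neurotrophins and lipoproteins, was lower, at 72.3 ± 18.1 FPKM in HF_PBS and 149 ± 3.73 FPKM in chow (difference -1.07 ± 0.22, adjusted p = 0.0051; without libraries 3 and 4, -0.78, adjusted p = 0.0983). Bdnf, the main cortical neurotrophin, had 8.57, 8.63, 3.26 and 6.60 FPKM in HF_PBS libraries 1 to 4, against 6.22, 5.05, 4.32 and 6.76 FPKM in chow libraries 1 to 4, and its difference of 0.19 ± 0.28 (SE, adjusted p = 0.632) missed the threshold.

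Defences against oxidants were higher in part: 12 of 32 antioxidant and glutathione genes were higher and 2 lower (median 0.21), with 6 higher without HF_PBS library 4 or chow library 4 and 8 without chow library 3. Prdx1, a peroxiredoxin that removes hydrogen peroxide, had 32.0, 21.9, 45.5 and 46.1 FPKM in HF_PBS libraries 1 to 4, against 16.7, 15.7, 13.6 and 12.9 FPKM in chow libraries 1 to 4. HF_PBS libraries 3 and 4 were highest and library 2 closest to chow, with a difference of 1.22 ± 0.23 (SE, adjusted p = 0.00411), or 0.83 (adjusted p = 0.0835) without libraries 3 and 4. Mt1a, a metallothionein that binds zinc and copper, had 8.42, 8.46, 9.66 and 11.8 FPKM in HF_PBS libraries 1 to 4, against 3.07, 3.20, 2.70 and 4.09 FPKM in chow libraries 1 to 4, with all HF_PBS values above all chow values. Its difference was 1.42 ± 0.22 (SE, adjusted p = 0.00257), or 1.26 (adjusted p = 0.0533) without libraries 3 and 4. Gstm1, a glutathione transferase, averaged 127 ± 34.2 FPKM in HF_PBS and 46.4 ± 8.82 FPKM in chow (difference 1.41 ± 0.30, adjusted p = 0.00575; without libraries 3 and 4, 1.11, adjusted p = 0.104), and a second locus of the same symbol was higher by 0.82 (adjusted p = 0.00912). Gstm1 and Mt1a belong to families of similar genes, so their levels are uncertain where reads are shared.

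Lipid genes were called in both directions. Called were 28% of the cholesterol list and 36.4% of the fatty acid oxidation list. The fatty acid synthesis list had 12.5% called and the lipid transport list 58.8%, beside 28.2% over all loci. Of 25 cholesterol synthesis and uptake genes 5 were lower and 2 higher, with a median of 0.00, and 3 were lower without HF_PBS library 4 or chow library 4. Stard4, a cholesterol carrier, averaged 2.72 ± 0.703 FPKM in HF_PBS and 5.51 ± 0.533 FPKM in chow (difference -0.92 ± 0.22, adjusted p = 0.00931; without libraries 3 and 4, -0.68, adjusted p = 0.15), whereas Nsdhl, an enzyme of cholesterol synthesis, averaged 66.4 ± 10.6 FPKM in HF_PBS and 47.2 ± 4.15 FPKM in chow (difference 0.48 ± 0.11, adjusted p = 0.00924; without libraries 3 and 4, 0.37, adjusted p = 0.113). A second Nsdhl locus was not called (15.6 FPKM in HF_PBS, 13.4 FPKM in chow, difference 0.20, adjusted p = 0.132). Of 22 fatty acid oxidation genes and PPAR targets 4 were higher and 4 lower (median 0.18), with 2 in each direction without HF_PBS library 3 or 4 or chow library 2, 3 or 4, and 2 lower without chow library 1. Decr1, a reductase of unsaturated fatty acid oxidation, had 19.6, 21.0, 21.9 and 20.8 FPKM in HF_PBS libraries 1 to 4, against 15.3, 13.6, 11.3 and 13.3 FPKM in chow libraries 1 to 4. Both groups were tight and did not overlap, with a difference of 0.62 ± 0.12 (SE, adjusted p = 0.00388), or 0.59 (adjusted p = 0.0669) without libraries 3 and 4. Of 16 fatty acid synthesis genes 1 was higher and 1 lower, and of 17 lipoprotein and lipid transport genes 6 were higher and 4 lower. In the last of these lists 1 was higher without HF_PBS library 4 or chow library 3, 2 without chow library 1 or 4 and 3 without HF_PBS library 3 or chow library 2, and 2 were lower without HF_PBS library 4 or chow library 1, 3 or 4. Fabp7, the fatty-acid-binding protein of astrocytes, averaged 143 ± 82.6 FPKM in HF_PBS and 43.0 ± 7.28 FPKM in chow (difference 1.56 ± 0.36, adjusted p = 0.00814; without libraries 3 and 4, 0.95, adjusted p = 0.129), and was highest in HF_PBS libraries 3 and 4.

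Counts in other stress and immune lists stand beside the 28.2% called over all loci. Of 22 interferon-response genes 2 were lower and 0 higher, of 15 MHC genes 0 were called by limma in either direction (3 higher and 2 lower at an unadjusted p under 0.05), and of 21 endoplasmic reticulum stress genes 2 were higher and 3 lower. Dnajb9, a chaperone of the endoplasmic reticulum, averaged 24.1 ± 2.32 FPKM in HF_PBS and 16.9 ± 1.90 FPKM in chow (difference 0.50 ± 0.11, adjusted p = 0.00672; without libraries 3 and 4, 0.51, adjusted p = 0.074). Of 16 heat shock and cold response genes 3 were higher and 5 lower, 50% in all, with 1 to 4 higher and 3 to 6 lower without 1 library. Imprinted genes, expressed from 1 parental copy, were higher in 6 of 16 and lower in 2 (median 0.52), with 3 higher without HF_PBS library 3 and 4 to 6 without any other library. Ndn, the neuronal growth suppressor necdin, averaged 194 ± 46.3 FPKM in HF_PBS and 101 ± 10.1 FPKM in chow (difference 0.92 ± 0.23, adjusted p = 0.0111; without libraries 3 and 4, 0.71, adjusted p = 0.146). Gnas, the stimulatory G protein alpha subunit, averaged 1591 ± 198 FPKM in HF_PBS and 1015 ± 38.1 FPKM in chow (difference 0.64 ± 0.17, adjusted p = 0.0141; without libraries 3 and 4, 0.53, adjusted p = 0.153).

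Gal, Oxt and Tac1, which encode peptides, spread widely between HF_PBS libraries. Gal, the neuropeptide galanin, had 2.96, 1.85, 36.9 and 17.97 FPKM in HF_PBS libraries 1 to 4, against 0.234, 0.368, 0 and 0.841 FPKM in chow libraries 1 to 4. All HF_PBS libraries were above all chow libraries, libraries 3 and 4 by far the most, and the difference was 3.42 ± 0.68 (SE, adjusted p = 0.00469), or 1.82 (adjusted p = 0.0558) without libraries 3 and 4. Oxt, the oxytocin precursor of hypothalamic neurons, had 0.234, 5.61, 403 and 46.6 FPKM in HF_PBS libraries 1 to 4, against 0.286, 0.179, 0.232 and 0.0819 FPKM in chow libraries 1 to 4. HF_PBS library 1 lay within the chow range and library 3 alone held most of the signal. The difference of 4.63 ± 1.47 (SE, adjusted p = 0.0306) missed the threshold without any single chow library (adjusted p 0.0556 to 0.0679), without HF_PBS library 3 (0.0866) and without HF_PBS library 4 (0.093). Tac1, the precursor of substance P, which is abundant in striatal neurons, had 18.4, 57.3, 49.6 and 85.9 FPKM in HF_PBS libraries 1 to 4, against 5.57, 5.10, 7.60 and 11.8 FPKM in chow libraries 1 to 4. The groups did not overlap, but the difference of 2.61 ± 0.72 (SE, adjusted p = 0.0173) missed the threshold without HF_PBS library 4 (adjusted p = 0.0612) and was 2.12 (adjusted p = 0.187) without libraries 3 and 4. In HF libraries 5 to 8 Tac1 had 19.3, 9.63, 8.53 and 125 FPKM, with library 8 above every HF_PBS library. Galanin and oxytocin are on the hypothalamus list and Tac1 on the striatum list, whose scores were given above, and the part of neighbouring tissue in these values was not tested.

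No member of the glial lists was called lower. Of 34 oligodendrocyte and myelin genes 5 were higher, 14.7% beside 12.4% over all loci. All 34 differences were positive, with a median of 0.64 that was 0.06 without HF_PBS libraries 3 and 4. The count was 1 or 2 without HF_PBS library 3 or 4 or without any 1 chow library, 6 without HF_PBS library 1 and 28 without HF_PBS library 2. Their FPKM summed to 4563 to 16860 in HF_PBS and 4841 to 7232 in chow, which overlap. Aspa, an oligodendrocyte enzyme that splits N-acetylaspartate, had 20.5, 12.7, 21.9 and 20.7 FPKM in HF_PBS libraries 1 to 4, against 10.0, 8.94, 8.48 and 7.23 FPKM in chow libraries 1 to 4. Even HF_PBS library 2, the lowest on the myelin list, was above chow, and the difference was 1.06 ± 0.16 (SE, adjusted p = 0.00259), or 0.87 (adjusted p = 0.0539) without libraries 3 and 4.

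Of 21 astrocyte genes 6 were higher (median 0.19), and 3 or 4 of them without HF_PBS library 2, 3 or 4 or any chow library. Gfap, the intermediate filament that reactive astrocytes produce, had 122, 196, 213 and 253 FPKM in HF_PBS libraries 1 to 4, against 81.2, 87.8, 84.5 and 96.7 FPKM in chow libraries 1 to 4. All HF_PBS libraries exceeded all chow libraries, library 1 by the least, and the difference was 1.11 ± 0.26 (SE, adjusted p = 0.00873), or 0.82 (adjusted p = 0.143) without libraries 3 and 4. Aqp4, the water channel of astrocyte endfeet, averaged 117 ± 28.0 FPKM in HF_PBS and 52.7 ± 5.48 FPKM in chow (difference 1.11 ± 0.23, adjusted p = 0.00544; without libraries 3 and 4, 0.88, adjusted p = 0.0983). HF cortex averaged 128 ± 27.7 FPKM for Gfap and 69.7 ± 10.3 FPKM for Aqp4, and HF_PBS minus HF was 0.59 (adjusted p = 0.115) and 0.72 (adjusted p = 0.0376).

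Of 26 microglia genes 10 were higher (median 0.57). The count was 18 without HF_PBS library 1 but 1 without HF_PBS library 4, 3 without HF_PBS library 3 or chow library 4, 4 without chow library 2 and 5 without chow library 3. Cd53, a tetraspanin of white blood cells and microglia, had 5.61, 6.44, 10.0 and 7.50 FPKM in HF_PBS libraries 1 to 4, against 5.22, 3.57, 3.18 and 2.59 FPKM in chow libraries 1 to 4. HF_PBS library 1 was only just above the highest chow library, and the difference was 0.94 ± 0.21 (SE, adjusted p = 0.00636), or 0.69 (adjusted p = 0.108) without libraries 3 and 4. C1qb, a complement component that microglia make, had 28.9, 43.2, 70.1 and 48.1 FPKM in HF_PBS libraries 1 to 4, against 27.3, 26.1, 25.5 and 26.4 FPKM in chow libraries 1 to 4. The groups did not overlap, and the difference of 0.77 ± 0.21 (SE, adjusted p = 0.018) missed the threshold without HF_PBS library 4 (adjusted p = 0.0541). Microglial, astrocytic and myelin scores were all highest in HF_PBS library 3, and the part of tissue composition in these glial differences was not tested.

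Upper-layer markers were lower in 4 of 10 cases and higher in none (median -0.42), with 0 lower without HF_PBS library 4, 1 without HF_PBS library 3 and 3 or 4 without any other. Their FPKM summed to 220.3 to 383 FPKM in HF_PBS and 402 to 494 FPKM in chow. Rorb, a nuclear receptor of layer 4 neurons, had 6.34, 7.05, 4.61 and 4.33 FPKM in HF_PBS libraries 1 to 4, against 21.5, 17.6, 21.0 and 11.0 FPKM in chow libraries 1 to 4. Every HF_PBS library was below every chow library, but the difference of -1.57 ± 0.42 (SE, adjusted p = 0.0162) missed the threshold without HF_PBS library 4 (adjusted p = 0.0533). Of 15 deep-layer markers 1 was higher and 0 lower (median 0.48), with 14 positive differences. The deep-layer FPKM summed to 1016 to 1944 in HF_PBS and 552.7 to 842.4 in chow, with no overlap. The deep-layer scores did overlap, at -0.20 to 0.51 in HF_PBS and -0.71 to 0.08 in chow. Of 18 interneuron markers 1 was higher and 0 lower (median 0.39). Of 18 endothelial markers 0 were called by limma in either direction (0 higher and 1 lower at an unadjusted p under 0.05; median 0.03), and of 19 meningeal and mural cell markers 0 were called (0 higher and 0 lower at an unadjusted p under 0.05; median 0.29).

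The largest single differences include 1 from a minor locus. Ganab, the glucosidase II alpha subunit, had the largest called increase among genes whose groups did not overlap, with 4.16, 4.47, 7.398 and 13.7 FPKM in HF_PBS libraries 1 to 4, against 0.0889, 0, 0 and 0.123 FPKM in chow libraries 1 to 4. It was near 0 in every chow library, the difference was 3.70 ± 0.41 (SE, adjusted p = 0.000756), and it was called without HF_PBS libraries 3 and 4 as well (3.13, adjusted p = 0.0316). A merged locus of Ganab and Ints5 held most of the expression, at 36.9 FPKM in HF_PBS and 38.8 FPKM in chow, and did not change by the test (-0.07, adjusted p = 0.476). Next among such increases were Nts (3.46), Gal, Tac1, Nnat (2.59), Htr2c (2.40) and Rxrg (2.33), none called without HF_PBS libraries 3 and 4. Nts, Nnat and Rxrg each missed the threshold in 7 of the 8 fits without 1 library, and Htr2c in 3. Exoc8, of the exocyst that tethers vesicles, had 2.39, 0, 0 and 0 FPKM in HF_PBS libraries 1 to 4, against 5.26, 5.37, 4.99 and 7.21 FPKM in chow libraries 1 to 4. It was listed at 0 in 3 of 4 HF_PBS libraries, with a difference of -2.99 ± 0.59 (SE, adjusted p = 0.00459). Dbf4, a partner of the Cdc7 kinase that starts DNA replication, had 5.43, 7.13, 3.46 and 2.07 FPKM in HF_PBS libraries 1 to 4, against 23.0, 23.6, 21.7 and 27.6 FPKM in chow libraries 1 to 4. All HF_PBS libraries were far below chow, and it was called with all libraries (-2.39 ± 0.34, adjusted p = 0.00211) and without HF_PBS libraries 3 and 4 (-1.86, adjusted p = 0.0435). Hspa8, the constitutive heat shock cognate, had 0.994, 0.670, 1.08 and 0.563 FPKM in HF_PBS libraries 1 to 4, against 3.66, 3.21, 3.35 and 3.55 FPKM in chow libraries 1 to 4 at its locus, low levels for a message known to be abundant in brain, with a difference of -1.59 ± 0.22 (SE, adjusted p = 0.00211), or -1.57 (adjusted p = 0.0376) without libraries 3 and 4. Gfod1, an oxidoreductase-domain protein, averaged 5.94 ± 2.87 FPKM in HF_PBS and 31.2 ± 6.61 FPKM in chow (difference -2.39 ± 0.37, adjusted p = 0.00259; without libraries 3 and 4, -1.83, adjusted p = 0.0537).

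Among abundant genes, those averaging at least 20 FPKM in these 8 libraries, the 8 largest called differences per direction include those of Tmsb10, Scrt1 and Adcy1. Tmsb10, a thymosin that binds actin monomers in growing neurons, had 216, 199, 279.8 and 414 FPKM in HF_PBS libraries 1 to 4, against 56.9, 82.9, 63.4 and 119.7 FPKM in chow libraries 1 to 4. The HF_PBS values lay wholly above chow, with a difference of 1.77 ± 0.30 (SE, adjusted p = 0.00286), or 1.42 (adjusted p = 0.0572) without libraries 3 and 4. Scrt1, a neuron-specific repressor of the Snail family, had 15.4, 15.7, 9.86 and 10.6 FPKM in HF_PBS libraries 1 to 4, against 56.2, 55.4, 61.3 and 48.2 FPKM in chow libraries 1 to 4. No HF_PBS value came near the chow range, and the difference was -2.08 ± 0.36 (SE, adjusted p = 0.0032), or -1.79 (adjusted p = 0.0665) without libraries 3 and 4. Adcy1, the calcium-stimulated adenylyl cyclase, averaged 51.6 ± 22.7 FPKM in HF_PBS and 183 ± 25.3 FPKM in chow (difference -1.94 ± 0.40, adjusted p = 0.00521; without libraries 3 and 4, -1.37, adjusted p = 0.0914). HF cortex averaged 123 ± 25.4 FPKM for Tmsb10, 35.9 ± 16.3 FPKM for Scrt1 and 154 ± 65.1 FPKM for Adcy1, and HF_PBS minus HF was 1.13 (adjusted p = 0.015), -1.36 (adjusted p = 0.0167) and -1.60 (adjusted p = 0.0122).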

How the data were processed

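Per the labels' protocols, poly-A selected RNA was reverse transcribed from random primers and run on an Illumina HiSeq. Strandedness is not stated, and reads from antisense or overlapping genes may therefore count toward a gene. Per the labels and the file's columns, the authors deposited FPKM for every locus in each library, beside a status. TopHat, TopHat2, Bowtie, Bowtie2, Cufflinks and Cuffdiff, and rn5 as genome build, are named in the submitters' processing notes, which give no version or role. Values entered the calculations unchanged. No other series contributed columns (0 such columns).

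Left out were 161 loci that lacked the status OK somewhere, 136 of which averaged at least 1 FPKM. Differences were fitted to log2(FPKM + 0.5) of the deposited values by limma 3.58.1 under R 4.3.3, with 1 mean per group over all 16 libraries, 12 residual degrees of freedom, a mean-dependent prior variance and Benjamini-Hochberg adjustment over the 14824 loci. Depth was estimated as relative values from the steps between the lowest FPKM values. Python 3.11.15 (pandas 2.3.3, numpy 2.4.6, matplotlib 3.10.9) made the tables, sequences and plots. On simulated data of the same 14824 loci and groups, the fit recovered 32.8% of 67 loci changed 1.5-fold, 71.6% of 67 changed 2-fold and 89.4% of 66 changed 4-fold. Of its 134 calls, 5 were false. The simulated noise was independent between libraries and had the same spread at a locus in all groups. In the data far more loci were called and HF_PBS libraries spread more than chow libraries, so these rates need not hold for this comparison.

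Where a symbol had several loci, the one highest on average was used, and merged loci with several symbols were not ranked or counted in lists. Named genes are the 10 largest called differences per direction whose groups do not overlap, the 8 largest among genes averaging at least 20 FPKM in these 8 libraries, the 3 called members per direction with the lowest p in each of 63 lists, of which 62 had a tested member, and a few genes given throughout; the text describes a selection of these, made after their values were seen and favouring genes called in every fit that left out 1 library. The comparison, the lists and the marker sets were chosen with earlier results of these data known. Lists are described by counts and medians, with no test of the list. Most markers of other cell types and regions are also measured in cortex, and some lists share genes. Replicate numbers did not pair the libraries, as given below. The alternatives tried were other pseudocounts, filters, scalings, variance models and fold limits, a replicate block, and fits without single libraries or pairs of libraries. Most named genes outside that selection are given in counts only, and some results are not reported here.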

Additional observations from a re-analysis of the deposited data

Results flagged for a closer look

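In 14 of the groups of 4 libraries tested, 1 library stood apart from the other 3 by Dixon's 95% limit on the gap to the nearest library as a share of the group's range. The test ran on both groups of 112 genes, 224 groups in all, and chance alone gives such a gap in about 1 group of 20. Oxt reached 403 FPKM in HF_PBS library 3, against 0.234 to 46.6 FPKM in the other HF_PBS libraries. Exoc8 had 2.39 FPKM in HF_PBS library 1 and was listed at 0 in the other HF_PBS libraries. Aspa was at 12.7 FPKM in HF_PBS library 2, against 20.5 to 21.9 FPKM in the others. Btf3 was at 41.4 FPKM in HF_PBS library 4, against 27.3 to 28.8 FPKM in the others, and Csnk1d at 31.7 FPKM in the same library, against 38.3 to 39.1 FPKM.

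Among chow libraries, library 4 stood apart for 6 genes. Kcnab3 was at 17.4 FPKM there and at 35.2 to 37.9 FPKM in the other chow libraries, Slpi at 1.018 and 3.95 to 4.40 FPKM, and Ndufa11 at 92.2 and 104 to 105 FPKM. Chd5 was at 46.5 FPKM in chow library 4 and at 26.1 to 29.3 FPKM in the others, Egr3 at 72.0 and 52.4 to 54.1 FPKM, and Celsr2 at 46.0 and 39.1 to 39.7 FPKM. Tef was at 69.2 FPKM in chow library 1, against 76.5 to 77.9 FPKM in the others, and Sort1 at 154 FPKM in chow library 3, against 146 to 147 FPKM. Penk was at 106 FPKM in chow library 3, against 62.9 to 67.7 FPKM in the others.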

How the results depend on the processing

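The 4173 calls (1842 higher, 2331 lower in HF_PBS than in chow) stayed within 1.5 times of that number under pseudocounts of 0.1 and 1 (4173 and 4178 calls), no filter on low values (4045), a mean of at least 5 FPKM (3295), loci of any status (4234), median-ratio scaling (4240), quantile normalization (4431), a fit on the 8 libraries alone (4243), a constant prior variance (4117), array weights (5000) and the fit without HF_PBS libraries 1 and 2, chosen after seeing the data (5555). Quantile normalization put 51.3% of calls on the higher side, against 44.1% as reported. Without HF_PBS libraries 3 and 4 there were 101 calls, 27 higher and 74 lower, with 2 libraries against 4. Leaving out 1 library at a time gave 2013 to 4629 calls, 718 to 2157 higher and 1295 to 2525 lower. A fold limit of 1.5 left 2252 calls, 848 higher and 1404 lower.

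The replicate block gave 2331 calls, 837 higher and 1494 lower, of which 2091 were also called without the block. Correlations between same-numbered libraries after removing group means were 0.00971, 0.0161, 0.0236 and -0.164, and 0 of 4 HF_PBS libraries matched best with the chow library of their own number, so the numbers did not pair the libraries.

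Of the 224 genes followed, 2 changed sign under an alternative, neither of them called: Fos stood at 0.082 under array weights (adjusted p = 0.931) and Bdnf at -0.22 without HF_PBS libraries 1 and 2 (adjusted p = 0.607). The cause was not tested for these changes. Relative depth was 32.5% to 42.6% of that of chow library 2 in HF_PBS libraries and 38.7% to 100% in chow libraries, and loci above 0 numbered 23402 to 23544 in HF_PBS libraries and 23311 to 24333 in chow libraries, so differences of loci near 1 FPKM carry the most counting error.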

Other observations

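Other gene groups were called in either direction about as often as all loci, of which 28.2% were called. The share was 28% for semaphorins, plexins and neuropilins and 30.8% for cadherins. It was 23.5% for collagens and laminins and 31.8% for p53 targets and DNA damage genes. Of 25 semaphorin, plexin and neuropilin genes, which guide growing axons, 6 were lower in HF_PBS than in chow and 1 higher (median -0.09), with 3 lower without HF_PBS library 4. Sema3a, a secreted semaphorin that repels axons, had 3.75, 3.86, 1.35 and 1.90 FPKM in HF_PBS libraries 1 to 4, against 7.61, 7.07, 6.21 and 5.996 FPKM in chow libraries 1 to 4. HF_PBS libraries 3 and 4 were lowest and all 4 lay below chow, with a difference of -1.25 ± 0.25 (SE, adjusted p = 0.00474) by limma, or -0.74 (adjusted p = 0.0752) without libraries 3 and 4. Of 26 cadherin genes 7 were lower and 1 higher (median 0.01), with 3 lower without HF_PBS library 4 and 4 without HF_PBS library 3 or chow library 3. Celsr2, an atypical cadherin of planar polarity, averaged 19.7 ± 5.35 FPKM in HF_PBS and 41.0 ± 3.30 FPKM in chow (difference -1.08 ± 0.22, adjusted p = 0.00469; without libraries 3 and 4, -0.76, adjusted p = 0.0879). Of 17 collagen and laminin genes 4 were higher and 0 lower (median 0.32), with 1 higher without HF_PBS library 3 or 4, 2 without chow library 1, 2 or 3 and 7 without HF_PBS library 1. Col5a2, a fibrillar collagen chain, averaged 5.19 ± 1.20 FPKM in HF_PBS and 2.20 ± 0.318 FPKM in chow (difference 1.06 ± 0.20, adjusted p = 0.0039; without libraries 3 and 4, 0.82, adjusted p = 0.0812). Of 22 p53 targets and DNA damage genes 5 were higher and 2 lower (median 0.24), with 1 higher without HF_PBS library 4, 2 without HF_PBS library 3 or chow library 1 or 3, and 3 without chow library 2 or 4. Cdkn1a, a cell cycle inhibitor, had 14.4, 7.87, 11.6 and 8.63 FPKM in HF_PBS libraries 1 to 4, against 7.17, 7.16, 5.99 and 9.27 FPKM in chow libraries 1 to 4, overlapped between the groups and did not pass the test (0.47 ± 0.23, adjusted p = 0.129).

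Loci without a gene symbol were called lower more often than loci with 1 symbol, 19.5% against 14.5%. They were called higher in 11.6%, against 12.7%. Of 3791 such loci 438 were higher and 739 lower in HF_PBS, 31.0% in all, beside 27.2% of the 10710 loci with 1 symbol and 26.0% of the 323 merged loci with several symbols. Cbln1, a secreted organizer of synapses known from the cerebellum, had 2.30, 3.89, 10.1 and 4.32 FPKM in HF_PBS libraries 1 to 4, against 0.114, 0.688, 0.494 and 0.934 FPKM in chow libraries 1 to 4. All HF_PBS libraries were above all chow libraries, with library 3 highest, and the difference was 2.31 ± 0.56 (SE, adjusted p = 0.00958), or 1.80 (adjusted p = 0.134) without libraries 3 and 4. Tcf7l2, a Wnt-pathway transcription factor of thalamic neurons and oligodendrocytes, had 3.64, 5.03, 8.80 and 6.56 FPKM in HF_PBS libraries 1 to 4, against 2.96, 2.39, 2.36 and 2.10 FPKM in chow libraries 1 to 4. Library 3 was again highest, and the difference was 1.09 ± 0.21 (SE, adjusted p = 0.00431), or 0.70 (adjusted p = 0.0748) without libraries 3 and 4. The sums of the cerebellum list (83.9 to 123 FPKM in HF_PBS, 74.3 to 114 FPKM in chow) and of the thalamus list (75.2 to 147 FPKM in HF_PBS, 79.0 to 93.4 FPKM in chow) overlapped between the groups, and their part in these values was not tested.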
